A study of Mus musculus with 35 samples.

Results

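The lungs described here are those of KO mice at the first sampled day, 2 days after naphthalene, set against untreated KO lungs with the same day label. The members are the 6 libraries whose titles give the KO genotype and day 2, 3 untreated and 3 treated, out of 35 libraries in the series. All 6 are RNA of whole lung from mice of the genotype RORaf/fIl7riCre, whose age the series gives as 14 days. One group received naphthalene and was taken at time point 2, and the agent of the other is given as none. In this genotype both copies of Rora carry loxP sites, and Cre is made where Il7r is active, mainly in lymphoid cells, so that the deletion is meant for cells with present or past Il7r activity and not for epithelium. The untreated and the treated KO lungs share this deletion and the Cre. The control genotype, RORaf/f, names no Cre in its label. The labels do not say whether each library is a separate mouse, so p-values measure the spread between these samples.

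Naphthalene is harmless until a cytochrome P450 of airway club cells, mainly Cyp2f2 in the mouse, turns it into a reactive epoxide that binds glutathione and protein. Club cells are the dome-shaped secretory cells of the bronchioles, they make secretoglobins, and they die first after the drug. Neighbouring ciliated cells are spared but flatten and spread over the bared surface, and surviving club cells and neuroendocrine cells then rebuild the epithelium. Group 2 innate lymphoid cells (ILC2s), the cells named in the title of the series, depend on the nuclear receptor RORa and are a known source of the growth factor amphiregulin in injured lung.

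Rora, the deleted gene, was not called between the treated and untreated KO lungs. Its level was 63.05, 35.5 and 41.7 CPM (counts scaled to library size with TMM factors) in untreated replicates 1 to 3 and 63.5, 45.3 and 64.0 CPM after naphthalene, so that the groups overlapped (log2 change 0.30 ± 0.20 SE, adjusted p = 0.524, edgeR). Against the control genotype of the same day, Rora in KO lungs stood 0.36 ± 0.21 log2 units higher without treatment (adjusted p = 0.842) and 0.27 ± 0.20 higher after it (adjusted p = 0.756). Il7r, the locus that carries the Cre, was at 8.5, 5.34 and 4.67 CPM untreated and at 5.30, 3.43 and 5.74 CPM treated (log2 change −0.35 ± 0.42, adjusted p = 0.780). Whole-lung counts therefore showed no loss of Rora transcript in KO lungs, and they do not check a deletion limited to lymphoid cells.

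Totals were 10696690, 17621862 and 13365310 counts in untreated replicates 1 to 3 and 14297544, 16111085 and 16225751 in the treated lungs, so that 1 read was worth 0.0551 to 0.0886 CPM. The defining markers of lung were high in all 6, with Sftpc of alveolar type 2 cells at 9129 CPM or more, Ager of type 1 cells at 1458 or more and Pecam1 of endothelium at 844 or more. Untreated replicate 1 stood apart from the other 2 untreated lungs. In a principal component analysis of the 6 libraries it lay at −9.49 on the first component, between the treated lungs (−47.8 to −14.6) and untreated replicates 2 and 3 (47.6 and 62.3), and at −70.7 on the second component, far from all others (5.18 to 28.5). It held more of the immediate early transcript Nr4a1 (473 CPM against 57.5 and 54.1) and less elastin (Eln, 3546 CPM against 12901 and 10089). Its library name carries the letter n, the names of the other untreated lungs k and those of all 3 treated lungs a. What the letters stand for is not given, and treatment and letter cannot be told apart. In the control genotype, untreated replicate 3 carries n and the others k. Il7r was highest in the n lung of both genotypes (control 10.6 CPM against 2.53 and 1.75). The secretoglobin Scgb3a1 was lowest in the KO n lung (24.7 CPM against 68.1 and 95.5). In the control n lung it was highest (89.3 CPM against 54.0 and 56.5). The part of the letter in the results was not tested. Transcripts of the mitochondrial genome were 1.4% ± 0.135 (SD, n = 3) of counts in untreated and 2.04% ± 0.476 in treated lungs, without overlap (exact permutation p = 0.1, the smallest possible), and the part of this difference in the results was not tested.

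**Figure D1:**
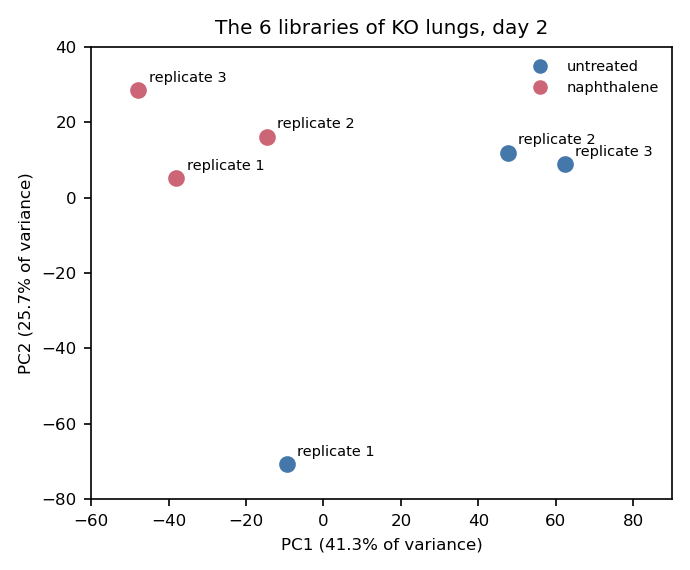
The 6 libraries of KO lungs at day 2 on the first 2 principal components of log2 CPM, with the share of variance on each axis (41.3% and 25.7%). Untreated replicate 1 lies at −70.7 on the second component, away from the other 5 libraries.

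Naphthalene changed 565 of 20606 tested genes in KO lungs at day 2 (2.74%), of which 411 were higher (1.99% of all tested) and 154 lower (0.747%). A gene is called, here and below, when edgeR's quasi-likelihood test over all tested genes gives a Benjamini-Hochberg adjusted p under 0.05. The change was at least 2-fold in 448 of the called genes, and the median log2 change was 1.53 among those higher and −1.30 among those lower, against −0.04 over all tested genes. The 3 treated and 3 untreated values did not overlap in 521 called genes, and without regard to calls in 18.3% of all tested genes (9.92% higher, 8.41% lower). Without untreated replicate 1 the count rose to 1099, of which 496 were among the 565, and with that library as the only untreated one it was 84, of which 71 were among the 565. In that fit the lone library is assumed to vary like those of the other groups. Without another single library it ran from 216 (treated replicate 3 left out) to 761 (treated replicate 2 left out). All of the 565 genes that were tested kept their direction in each fit that left out 1 library. Of 94 called genes named below, 51 kept their call without each of the 6 libraries, and for those that did not the highest adjusted p in these fits is given where they appear. A gene given with 1 such p may have lost its call without other libraries too. Hydin, Krt14, Sox4, C3, Gzma, Vwf, Apln and Plin4, among others, kept their calls in 2 of the 6 fits.

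**Figure D2:**
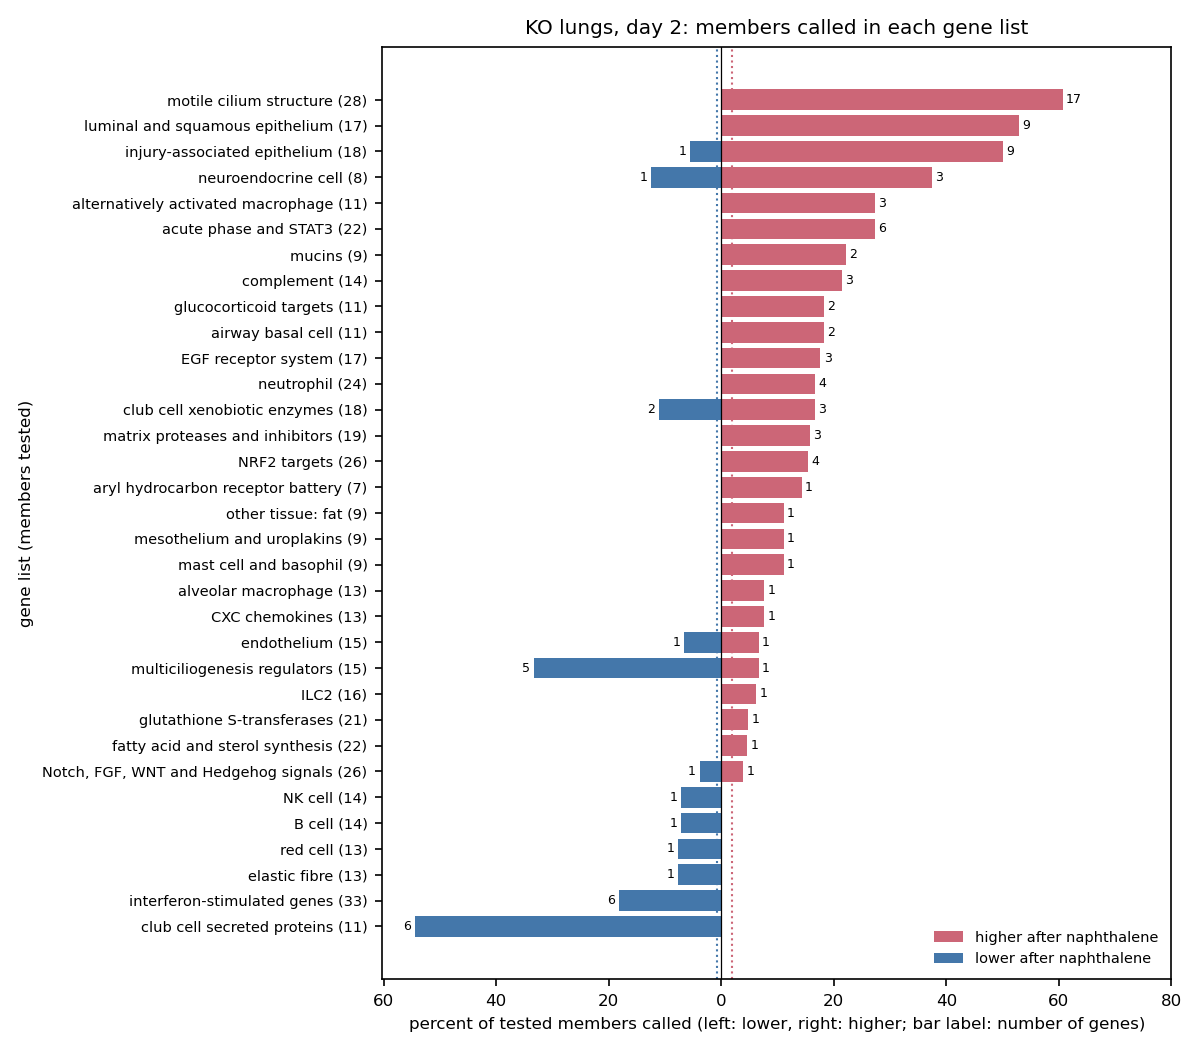
Percent of the tested members of each gene list called lower (left) or higher (right) after naphthalene in KO lungs at day 2, with the number of genes at each bar and, as dotted lines, the share of all tested genes called lower (0.747%) and higher (1.99%). Lists with no called member are left out, and a bar of 1 gene describes that gene and not its list. Cilium structure (17 of 28 members) and luminal epithelium (9 of 17) reach farthest to the right, club cell secreted proteins (6 of 11) farthest to the left.

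Secreted products of club cells were the list with the largest share of members that fell. Of 11 tested genes for club cell secreted proteins, 6 were lower and none was higher (median log2 change −2.37). Scgb1a1, the uteroglobin that defines club cells, was at 5199, 5846 and 8639 CPM in untreated lungs and at 395, 417 and 465 CPM after naphthalene. Every treated lung was more than a factor of 10 under every untreated one, and the change was 15.4-fold (log2 −3.95 ± 0.29, adjusted p = 3.35e-10). Scgb3a2, a secretoglobin of small airways, went from 245, 407 and 559 CPM to 48.9, 95.1 and 51.0 CPM (log2 −2.63 ± 0.37, adjusted p = 3.98e-05). Lypd2, a GPI-anchored protein of secretory cells, and Chad, a matrix protein, fell by 2.98 and 2.37 on the log2 scale (adjusted p = 0.000183 and 0.000196). Tff2, a trefoil peptide of mucous surfaces, was at 1.95, 9.75 and 10.3 CPM and then at 0.0663, 0.782 and 0 CPM (log2 −4.66 ± 0.97, adjusted p = 0.00512). Its call was lost without treated replicate 3 (adjusted p = 0.0557), and its log2 change was −7.58 without treated replicate 2. Scgb3a1, a secretoglobin of larger airways, had a log2 change of −2.73 ± 0.66 (adjusted p = 0.0199) and kept its call in 2 of the 6 fits that left out 1 library, with an adjusted p up to 0.155 without treated replicate 3 and a log2 change of −3.48 without treated replicate 2. In RNA of whole lung, fewer club cells and less transcript per club cell cannot be told apart.

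**Figure D3:**
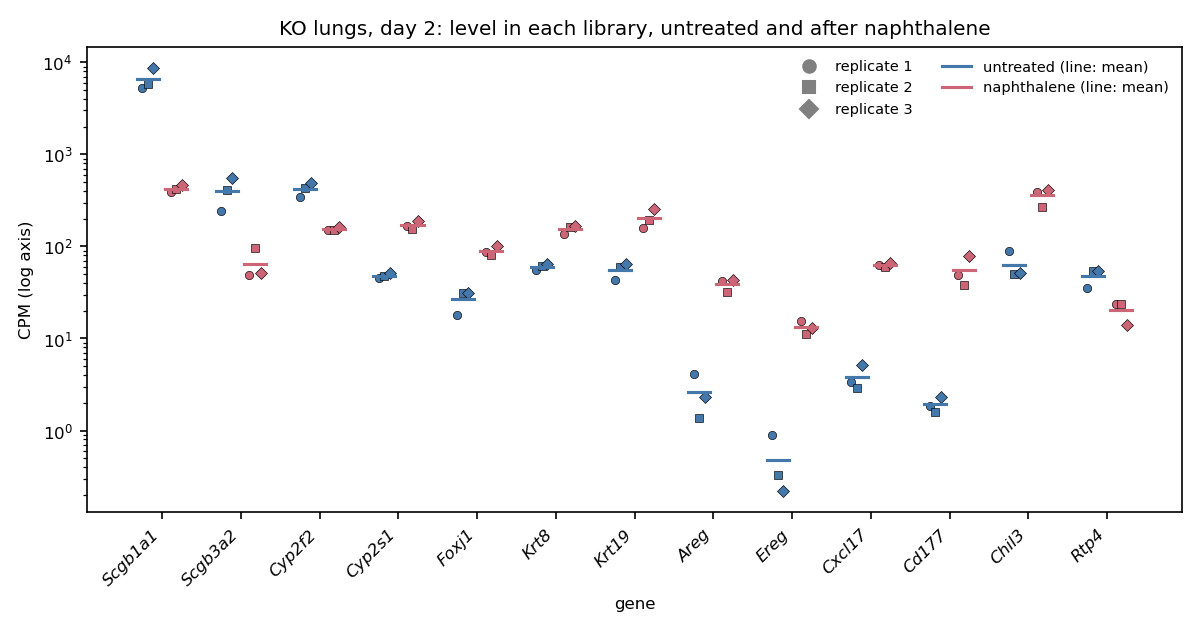
Level in CPM (log axis) of 13 genes in each of the 3 untreated and 3 treated KO lungs of day 2, with a line at the mean of each group and a symbol for each replicate number. The 13 genes were picked from the called ones, and the 2 groups do not overlap for any of them, as for 18.3% of all tested genes. Scgb1a1 dropped from 5199 CPM or more to 465 CPM or less.

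Not every club cell gene fell. Among 18 genes for the drug-metabolising enzymes of club cells, 2 were lower and 3 were higher (median log2 change 0.25). Cyp2f2, the enzyme that activates naphthalene, dropped from 342, 432 and 490 CPM to 149, 152 and 162 CPM (log2 −1.45 ± 0.28, adjusted p = 0.00174), a 2.73-fold change beside the 15.4-fold change of Scgb1a1. Cyp2s1, an epithelial cytochrome P450, moved the other way, from 44.9, 47.3 and 50.9 CPM to 165, 156 and 189 CPM (log2 1.83 ± 0.20, adjusted p = 5.31e-07). Gsto1, an omega-class glutathione transferase, rose 3.08-fold and Cyp2b10, the classic target of the receptor CAR, 3.60-fold (adjusted p = 0.000142 and 0.000943). These 4 genes kept their calls without each library. Cbr2, a carbonyl reductase that is abundant in club cells, was not called (log2 change −0.39 ± 0.24, adjusted p = 0.470), with 1483, 1546 and 1763 CPM untreated and 1054, 1099 and 1498 CPM treated.

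Genes of the oxidative stress factor NRF2, which turns on glutathione synthesis and detoxifying enzymes when electrophiles modify its inhibitor Keap1, were higher in 4 of 26 cases and lower in none (median log2 change 0.11). Akr1b8, an aldo-keto reductase, went from 6.38, 8.10 and 7.81 CPM to 18.5, 16.8 and 24.5 CPM (log2 1.42 ± 0.23, adjusted p = 0.000196). Gclc, the catalytic subunit of the rate-limiting enzyme of glutathione synthesis, rose 1.70-fold, the cystine importer Slc7a11 2.97-fold and the sulfiredoxin Srxn1 1.64-fold (adjusted p = 0.0177, 0.0265 and 0.0395). Of the 4, only Akr1b8 stayed called without each single library. Gclc reached an adjusted p of 0.122 without untreated replicate 2, Slc7a11 0.156 and Srxn1 0.271 without untreated replicate 3, and 1 of the 4 calls was left without untreated replicate 2 or 3 or treated replicate 3. The ferritin heavy chain Fth1, the most abundant member, was not called (log2 change 0.23, adjusted p = 0.698). Of 21 glutathione transferases, Gsto1 was the only called member. The aryl hydrocarbon receptor battery had 1 of 7 members called, Cyp1b1 (log2 1.05 ± 0.29, adjusted p = 0.0398, up to 0.261 without untreated replicate 2). None of 19 p53 target genes was called.

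The 2 lists of motile cilium genes differed in their calls. Structural genes of the axoneme (dynein arms, radial spokes, docking and assembly factors) were higher in 17 of 28 cases and lower in none (median log2 change 1.09). Of 15 genes listed as regulators of multiciliogenesis, which include genes of centriole production, 5 were lower and 1 was higher (median −0.38). The summed level of the regulators, Foxj1 included, was 115.7, 115.4 and 112.8 CPM untreated and 177.3, 159.2 and 192 CPM treated. The structural genes were led by Cimap3, a ciliary microtubule-associated protein, which rose from 1.59, 2.26 and 2.99 CPM to 11.5, 9.50 and 8.84 CPM (log2 2.11 ± 0.26, adjusted p = 4.77e-06). Fam183b, a cilium-associated protein, rose from 2.83, 2.09 and 2.04 CPM to 7.63, 6.92 and 8.96 CPM (log2 1.76 ± 0.23, adjusted p = 1.18e-05). The outer dynein arm heavy chain Dnah9 rose 2.84-fold, Cfap126 2.50-fold, the assembly factor Ccdc40 2.88-fold and the dynein intermediate chain Dnai2 2.20-fold (adjusted p = 1.18e-05, 3.43e-05, 0.000169 and 0.000406). In each of these 6 genes the lowest treated lung was above the highest untreated one, as in 9.92% of all tested genes and in 394 of the 411 genes called higher. Drc1, a subunit of the nexin-dynein regulatory complex, and Hydin, of the central pair, had log2 changes of 1.35 ± 0.29 and 1.03 ± 0.25 (adjusted p = 0.00554 and 0.0187), with adjusted p up to 0.0792 and 0.148 without untreated replicate 2. Without that library the list had 9 calls, without untreated replicate 3 or treated replicate 1 or 3 it had 12 or 13, and with untreated replicate 1 as the only untreated lung it had 4. Tppp3 and Tubb4b, the most abundant members, code for proteins also found outside cilia and were not called (log2 −0.36 and 0.41, adjusted p = 0.420 and 0.458).

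Among the 5 regulators that fell were genes of fate choice and of centriole production. Gmnc (geminin coiled-coil protein) and Mcidas (multicilin), which commit a cell to the multiciliated fate, went from 1.86, 1.05 and 1.17 CPM to 0.0663, 0.180 and 0.234 CPM and from 1.24, 1.76 and 1.61 CPM to 0.398, 0 and 0.176 CPM. The changes were −2.98 ± 0.56 and −3.01 ± 0.58 on the log2 scale (adjusted p = 0.00160 and 0.00209). Foxn4, a transcription factor of the same programme, had 29 reads in the untreated and 2 in the treated lungs, a pooled ratio of 0.0610 (95% interval 0.00705 to 0.241, exact, counting error only, adjusted p = 0.00209). Cdc20b, which serves the mass production of centrioles and hosts miRNAs of the miR-449 cluster, had 27 and 1 reads (ratio 0.0328, interval 0.000800 to 0.199, adjusted p = 0.00554). In the treated lungs these genes had few reads, 8 for Gmnc and 9 for Mcidas. All 4 kept their calls without each single library, while the log2 change of Mcidas was −4.01 without treated replicate 1. Tub (tubby) fell by 1.33 on the log2 scale (adjusted p = 0.0182) and was called in 2 of 6 fits without a library (adjusted p up to 0.181, treated replicate 3 left out). Foxj1, the transcription factor that drives axoneme genes later in the programme, went the other way, from 18, 31 and 30.9 CPM to 87.0, 80.2 and 101 CPM (log2 1.74 ± 0.38, adjusted p = 0.00695).

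The promoters of 2 structural genes that rose and of the regulator Mcidas that fell are shown because factors of the RFX family, which act on ciliary genes, bind inverted repeats of the short site GTTGCC. RefSeq promoters (table of build GRCm38.p6, matched by symbol, while the counts are on GRCm39) were found for 20 of 28 structural genes and 14 of 15 regulators. In the window from 250 bases before to 50 after the start of the transcript, GTTGCC stood on 1 of the strands in 10 of 20 structural genes (50%) and 7 of 14 regulators (50%), and in 14.1% of all 27025 genes in the table. The 250 bases before the start are printed, with each match in capitals, as GTTGCC or as its reverse complement GGCAAC.
Fam183b (chr11:58801961-58802210, minus strand): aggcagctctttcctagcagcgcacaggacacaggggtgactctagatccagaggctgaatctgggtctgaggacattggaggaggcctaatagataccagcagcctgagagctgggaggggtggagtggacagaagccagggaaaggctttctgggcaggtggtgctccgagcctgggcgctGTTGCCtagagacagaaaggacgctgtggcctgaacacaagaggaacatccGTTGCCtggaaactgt
Drc1 (chr5:30281143-30281392, plus strand): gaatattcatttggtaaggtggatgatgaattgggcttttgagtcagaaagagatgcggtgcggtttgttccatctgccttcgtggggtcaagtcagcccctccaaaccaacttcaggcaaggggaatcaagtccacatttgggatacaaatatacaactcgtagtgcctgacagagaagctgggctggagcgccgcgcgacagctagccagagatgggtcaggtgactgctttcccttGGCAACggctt
Mcidas (chr13:112993618-112993867, plus strand): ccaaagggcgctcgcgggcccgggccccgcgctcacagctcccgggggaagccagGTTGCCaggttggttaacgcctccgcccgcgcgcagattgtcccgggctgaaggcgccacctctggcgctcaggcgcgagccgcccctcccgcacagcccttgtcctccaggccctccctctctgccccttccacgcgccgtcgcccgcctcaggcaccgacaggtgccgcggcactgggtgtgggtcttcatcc
The matches begin 67 and 16 bases before the start in Fam183b, 11 bases before it in Drc1 and 195 bases before it in Mcidas. A match is a description of these letters and not a binding site. The share was the same in the list whose members rose and in the one with most of the falls. For the NRF2 list, the antioxidant response element core TGACNNNGC stood in 10 of 22 matched promoters (45.5%) and in 14.0% of all genes. Akr1b8, whose call stood without each single library, had no match in the window, and Srxn1 had 1 at 28 bases after the start.

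**Figure D4:**
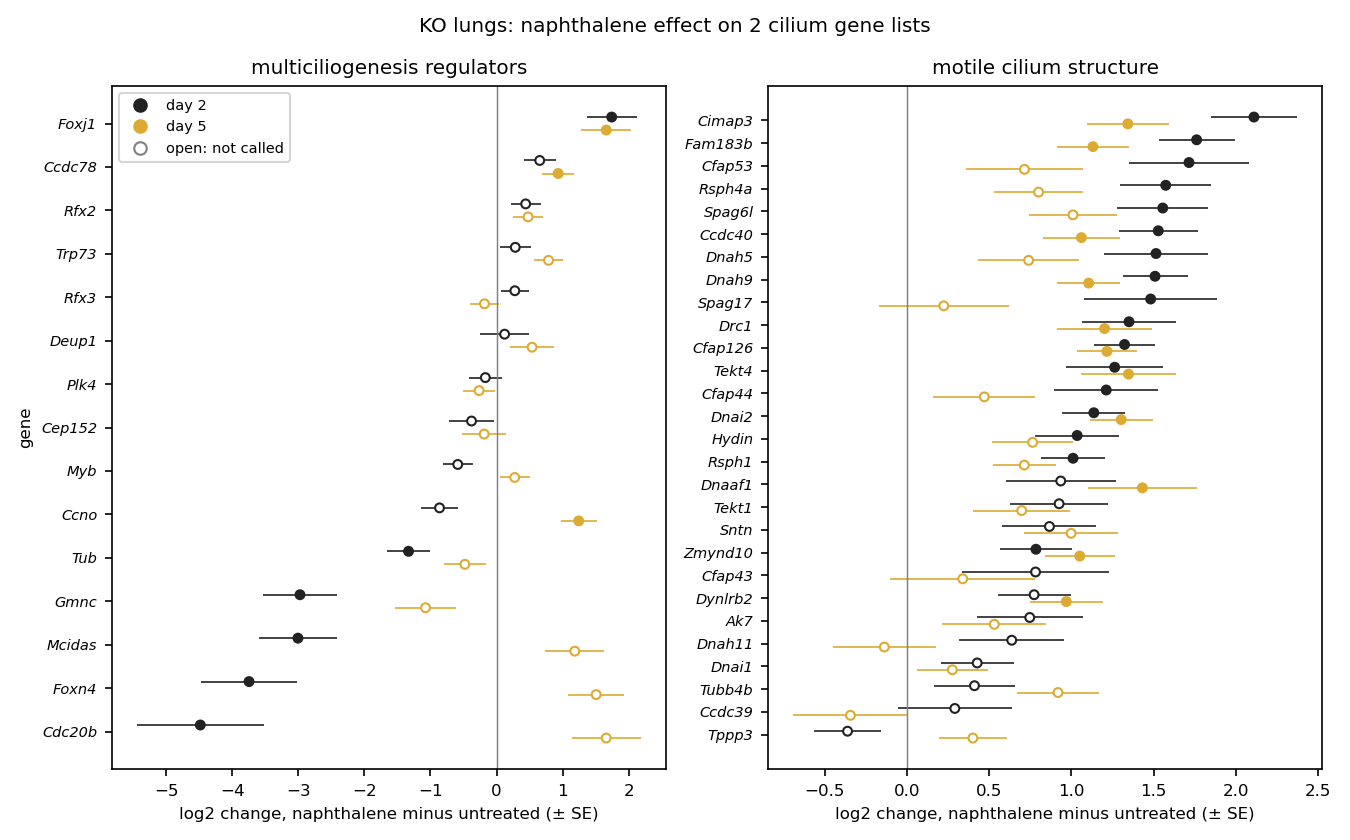
Log2 change after naphthalene (± SE) of each member of the 2 cilium lists in KO lungs at day 2 (black) and day 5 (yellow), with filled circles for called genes. At day 2 Cdc20b, Foxn4, Mcidas and Gmnc lie below −2.9 while 27 of the 28 structural genes lie above 0. At day 5 Cdc20b, Foxn4 and Mcidas lie above 0 but are not called.

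Genes of luminal and squamous epithelium, the keratins, claudins and cornified envelope proteins of stratified or stressed airway lining, were higher in 9 of 17 cases and lower in none (median log2 change 1.37). The simple epithelial keratins were the abundant part of this change. Krt8 rose from 54.9, 61.1 and 64.7 CPM to 136, 164 and 168 CPM (log2 1.37 ± 0.24, adjusted p = 0.000711), and Krt19 from 43.1, 60.5 and 64.1 CPM to 160, 194 and 257 CPM (log2 1.86 ± 0.35, adjusted p = 0.00144). Krt18, the partner of Krt8, rose 2.24-fold and the tight junction protein Cldn4 3.74-fold (adjusted p = 0.00267 and 0.00166). Krt7 was not called (log2 change 0.43 ± 0.18, adjusted p = 0.239).

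Several genes of this group went from near absence to clear detection. Psapl1, a prosaposin-like protein, was at 0, 0.275 and 0.0730 CPM untreated and at 14.0, 13.5 and 17.7 CPM treated (log2 6.71 ± 0.58, adjusted p = 8.98e-09). The size of this change rests on 6 untreated reads, and it was 8.31 without untreated replicate 2. The serine protease Prss22 had 3 reads in all untreated lungs and 917 in the treated ones, a pooled ratio of 270.4 (95% interval 92.2 to 1314, adjusted p = 1.99e-06). Krt20 had no read in the untreated lungs and 46 in the treated ones, at least 13.6-fold higher against a floor of 3 counts over the group (adjusted p = 0.000549). Krt4, of the squamous and hillock type epithelium, had 3 and 69 reads (ratio 20.35, interval 6.68 to 101, adjusted p = 0.00501, and 0.0567 without untreated replicate 2). Sprr1a, a cornified envelope precursor, rose 6.25-fold (adjusted p = 0.0153, up to 0.111 without treated replicate 3). Among 11 genes of airway basal cells, Krt17 (2 and 42 reads, ratio 18.6, interval 4.83 to 158, adjusted p = 0.0101) and Krt14 (2 and 38 reads, ratio 16.8, interval 4.34 to 144, adjusted p = 0.0317) were higher. Neither call stood without untreated replicate 2 (adjusted p = 0.0709 and 0.147).

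Injury-associated epithelial genes were higher in 9 of 18 cases and lower in 1 (median log2 change 0.90), and this list shares Krt8, Krt19, Cldn4, Areg and Ereg with others here. Clu, the secreted chaperone clusterin, rose from 54.9, 68.3 and 61.7 CPM to 196, 197 and 181 CPM (log2 1.63 ± 0.25, adjusted p = 0.000102). The metalloprotease inhibitor Timp1 rose 3.09-fold (adjusted p = 0.00491). The galectin Lgals3 rose 2.30-fold (adjusted p = 0.0131) and lost its call without treated replicate 3 (adjusted p = 0.0766). The transcription factor Sox4 fell by 0.92 on the log2 scale (adjusted p = 0.0234, and 0.215 without treated replicate 3). Of the mucins, the membrane mucin Muc4 rose from 11.2, 10.7 and 10.7 CPM to 59.3, 64.8 and 59.8 CPM (log2 2.49 ± 0.24, adjusted p = 3.63e-08), with hardly any spread inside either group. Muc16 rose 2.69-fold (log2 1.43, and 2.11 without untreated replicate 1; adjusted p = 0.0348, and 0.242 without untreated replicate 2), and the secreted mucin Muc5b was not called (log2 −1.88 ± 0.69, adjusted p = 0.160). None of 9 tested goblet cell genes was called.

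Ligands of the EGF receptor family were among the strongest increases, and 3 of 17 genes of the receptor system were called. Ereg (epiregulin), a ligand of EGFR and ErbB4, rose from 0.886, 0.330 and 0.219 CPM to 15.6, 11.1 and 12.9 CPM (log2 4.85 ± 0.50, adjusted p = 2.37e-07). Areg (amphiregulin), a ligand of EGFR, rose from 4.16, 1.38 and 2.34 CPM to 42.0, 31.9 and 43.5 CPM (log2 3.94 ± 0.41, adjusted p = 2.86e-07). Nrg1 (neuregulin), a ligand of ErbB3 and ErbB4, rose from 2.04, 2.81 and 2.77 CPM to 10.8, 10.8 and 13.6 CPM (log2 2.20 ± 0.30, adjusted p = 2.07e-05). All 3 were called without each library, and the log2 change of Ereg was 5.52 without untreated replicate 1. The tested receptors and feedback inhibitors of the list were not called, and its median log2 change was 0.05. Among 26 Notch, FGF, WNT and Hedgehog genes, the ligand Shh fell by 0.98 on the log2 scale (adjusted p = 0.00596, and 0.0946 without treated replicate 3) and the ligand Wnt7b had a log2 change of 1.31 (adjusted p = 0.0403), a call lost without any 1 of the 6 libraries (adjusted p up to 0.177). That is 1 call each way (3.85%), where 1.99% of all tested genes were higher and 0.747% lower, and it describes these genes and not the list.

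Neuroendocrine cells, the sensory cells of the airway that store peptides, had 3 of 8 tested genes higher and 1 lower. Calca, which encodes the peptide CGRP, rose from 0.531, 0.551 and 1.31 CPM to 7.69, 4.81 and 6.91 CPM (log2 3.01 ± 0.43, adjusted p = 4.90e-05). Scg2 (secretogranin 2), a granule protein, had 2 reads in untreated and 75 in treated lungs (ratio 33.2, interval 8.87 to 279, adjusted p = 0.00145). Resp18, another granule protein, had 3 and 40 reads (ratio 11.8, interval 3.76 to 59.6, adjusted p = 0.0479) and lost its call without any 1 of the 6 libraries (adjusted p up to 0.205).

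Neutrophil genes differed between the treated lungs. All 24 tested members had a log2 change above 0, where 46.0% of all tested genes did, 4 were called, and the median was 0.99. The summed level of the list was 260.0, 253.9 and 272 CPM in untreated lungs and 677, 386 and 736 CPM after naphthalene, so that treated replicate 2 lay nearest the untreated lungs. Il1r2, the decoy receptor of IL-1, shows the same split, with 0.443, 0.991 and 0.584 CPM untreated and 7.76, 0.842 and 11.1 CPM treated (log2 3.22 ± 0.66, adjusted p = 0.00341, and without treated replicate 3 a log2 change of 2.60 with adjusted p = 0.0533). The granule collagenase Mmp8 and the chemokine receptor Cxcr2 had log2 changes of 2.21 and 1.71 (adjusted p = 0.00996 and 0.0408, up to 0.112 and 0.269 without treated replicate 3). The number of called members was 7 without treated replicate 2 and 1 without treated replicate 3. That remaining gene was Cd177, a neutrophil surface protein, at 1.86, 1.60 and 2.34 CPM untreated and 49.5, 38.0 and 78.0 CPM treated (log2 4.84 ± 0.44, adjusted p = 3.00e-08). Cd177 was high in treated replicate 2 too, where S100a9, an abundant neutrophil transcript, was at 39.7 CPM, inside the untreated range of 30.9 to 51.9 CPM. S100a9 was not called (adjusted p = 0.169), nor was Lcn2 (adjusted p = 0.428).

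Of 13 CXC chemokines, Cxcl17, a mucosal chemokine made by airway epithelium, was called. It rose from 3.37, 2.86 and 5.11 CPM to 63.5, 59.2 and 65.8 CPM (log2 4.06 ± 0.44, adjusted p = 5.55e-07), and treated replicate 2 was no exception. None of 18 CC chemokines was called. Acute phase and STAT3 genes, which respond to IL-6 type cytokines, were higher in 6 of 22 cases (median log2 change 0.78). Orm1, the acute phase protein orosomucoid, went from 0.0886, 0.165 and 0.219 CPM to 4.71, 3.61 and 5.80 CPM (log2 4.80 ± 0.65, adjusted p = 2.32e-05). The protease inhibitor Serpina3n rose from 55.3, 47.9 and 48.2 CPM to 327, 194 and 321 CPM (log2 2.48 ± 0.38, adjusted p = 0.000111), and the metalloreductase Steap4 rose 3.22-fold (adjusted p = 0.00303). Lrg1 rose 4.23-fold (adjusted p = 0.0176) and Il6ra, the IL-6 receptor, 1.63-fold (adjusted p = 0.0318). Lrg1 kept its call in 3 of the 6 fits that left out 1 library, with an adjusted p up to 0.0777 without untreated replicate 3. Il6ra kept its call in 2 of them, with an adjusted p up to 0.227 without treated replicate 3. Saa1 had 2 and 26 reads (ratio 11.5, interval 2.88 to 99.98, adjusted p = 0.0450), and without treated replicate 1 its log2 change went from 3.35 to 2.18 (adjusted p = 0.371). Without untreated replicate 2 or 3, 3 of this list were called. Stat3 itself was not called (log2 0.42, adjusted p = 0.186).

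Complement genes were higher in 3 of 14 cases. C4b rose from 20.5, 25.6 and 21.3 CPM to 83.3, 50.3 and 71.6 CPM (log2 1.60 ± 0.26, adjusted p = 0.000213). C3, the central component, and C6, of the lytic complex, rose 2.15-fold and 1.61-fold (adjusted p = 0.0150 and 0.0177), with adjusted p up to 0.103 without untreated replicate 2 and up to 0.137 without treated replicate 1. Macrophage genes were led by Chil3, the chitinase-like protein Ym1, which rose from 88.4, 50.5 and 51.9 CPM to 395, 267 and 411 CPM (log2 2.49 ± 0.36, adjusted p = 4.80e-05). It was the only called gene of 13 in the alveolar macrophage list. Of 11 genes of alternatively activated macrophages, Spp1 (osteopontin, 3.94-fold, adjusted p = 0.0227) and Gpnmb (2.19-fold, adjusted p = 0.0250) were the other called ones. Spp1 reached an adjusted p of 0.165 without untreated replicate 2, its log2 change of 1.98 was 2.77 without untreated replicate 1, and Gpnmb 0.136 without untreated replicate 3.

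Of 33 interferon-stimulated genes 6 fell and 27 were not called. None of the 33 had a log2 change above 0, where 46.0% of all tested genes did, and the median was −0.62. Their summed level was 1019, 990.4 and 844 CPM in untreated and 751, 628 and 500 CPM in treated lungs, without overlap. Rtp4, a chaperone induced by type I interferon, went from 35, 53.5 and 53.9 CPM to 23.5, 23.7 and 14.1 CPM (log2 −1.22 ± 0.18, adjusted p = 9.04e-05). The ubiquitin-like Isg15 fell by 1.41 on the log2 scale and Xaf1 by 0.91 (adjusted p = 0.00306 and 0.00354). The deconjugating enzyme Usp18 and the antiviral enzyme Rsad2 (viperin) fell by 0.93 and 1.45 (adjusted p = 0.0218 and 0.0256). Rtp4 alone of the 6 kept its call without each single library. Without treated replicate 3 it was the only one called, and there the adjusted p was 0.0525 for Xaf1 and 0.200 for Rsad2. Isg15 reached 0.0642 without untreated replicate 2 and Usp18 0.195 without treated replicate 3.

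Lists of antigen presentation, B cell, NK cell and T cell genes had 2 calls in all. All 10 MHC class II genes had a log2 change below 0 (median −0.57), and none was called. H2-Eb1, a class II chain, was nearest to a call at 116, 170 and 184 CPM untreated and 83.1, 114 and 62.8 CPM treated (log2 −0.85 ± 0.25, adjusted p = 0.0662). Of 14 B cell genes all were below 0 (median −0.64), with 1 called, the receptor chain Cd79b (log2 −0.96 ± 0.25, adjusted p = 0.0281, and 0.261 without treated replicate 3). Of 14 NK cell genes 1 was called, the granzyme Gzma (log2 −1.57 ± 0.44, adjusted p = 0.0450, and 0.278 without treated replicate 3). In both lists the share lower was 7.14%, beside 0.747% of all tested genes, and it rests on 1 gene. T cell genes had a median of 0.03 and no call among 16. Haemoglobin transcripts were 0.391% ± 0.113 (SD, n = 3) of counts untreated and 0.266% ± 0.0573 treated, an overlap of groups at an exact permutation p of 0.2, where 0.1 is the smallest p that 3 against 3 allows.

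Genes that define ILC2s gave little signal in whole lung. Of 16 tested members of the list, Areg was the only one called, and it is also made by epithelium and other cells. Il1rl1, the receptor of IL-33, was at 3.63, 3.85 and 2.99 CPM untreated and 2.12, 2.23 and 1.87 CPM treated (log2 −0.75 ± 0.40, adjusted p = 0.383). Il5 had 14 and 10 reads in the 2 groups and Il13 was too low to be tested. None of 12 genes of the alarmin and IL-1 family and none of 8 eosinophil genes was called.

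In the 2 alveolar lists no gene was called. None of 14 alveolar type 2 genes and none of 15 type 1 genes was called (median log2 changes 0.30 and 0.06), and Sftpc was at 9129 to 12322 CPM untreated and 11153 to 14201 CPM treated. None of 16 DNA replication genes and none of 22 mitosis genes was called. Of the mitosis genes 1 of 22 had a log2 change above 0 (median −0.48). Among 15 endothelial genes, Vwf (von Willebrand factor) was higher and Apln (apelin) lower. Each is 6.67% of the list and 1 gene, where 1.99% of all tested genes were higher and 0.747% lower. Vwf went from 209, 164 and 171 CPM to 323, 302 and 402 CPM (log2 0.91 ± 0.23, adjusted p = 0.0257, and 0.184 without treated replicate 3). Apln went from 119, 154 and 154 CPM to 44.3, 108 and 28.6 CPM (log2 −1.24 ± 0.33, adjusted p = 0.0361, and 0.305 without treated replicate 3), and its log2 change was −1.97 without treated replicate 2. Fbn2 (fibrillin 2), of 13 elastic fibre genes, fell by 1.64 on the log2 scale (adjusted p = 0.00547, and 0.0726 without treated replicate 3). It was the only call of that list (7.69%).

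Msln (mesothelin), a surface protein of mesothelium, rose from 27.3, 37.2 and 33.4 CPM to 123, 137 and 134 CPM (log2 2.01 ± 0.33, adjusted p = 0.000295), the only called gene of 9 in the list of mesothelium and uroplakins. The summed level of 10 adipocyte genes was 18.3, 14.04 and 18.98 CPM in untreated and 28.98, 46.3 and 37.9 CPM in treated lungs, and 1 of 9 tested was called, Plin4, a lipid droplet protein (log2 1.13 ± 0.29, adjusted p = 0.0258, and 0.185 without treated replicate 3). The summed level of 9 heart genes was 334 to 493 CPM untreated and 273 to 430 CPM treated, with no call. The part of fat and heart tissue in the results was not tested. Of 11 glucocorticoid targets 2 were higher, the metallothionein Mt1 (2.80-fold, adjusted p = 0.0211) and the co-chaperone Fkbp5 (3.42-fold, adjusted p = 0.0324). Neither was called without treated replicate 3 (adjusted p = 0.138 and 0.314). Among 9 mast cell and basophil genes the histamine-forming enzyme Hdc was higher (log2 0.70, adjusted p = 0.0438), a call lost without any 1 library (up to 0.158 without untreated replicate 2). This share of 11.1%, beside 1.99% of all tested genes, rests on 1 gene. None of 18 circadian clock genes, a class that RORa itself acts on, and none of 15 immediate early genes was called.

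Large increases outside the lists were seen in genes with little or no level in untreated lung. Syt8, a synaptotagmin, rose from 0.531, 0.275 and 0.365 CPM to 5.83, 3.73 and 6.97 CPM (log2 3.84 ± 0.47, adjusted p = 3.52e-06). Atg9b, an autophagy protein, rose 10.6-fold, and Sptssb, a small subunit of serine palmitoyltransferase, rose from 0.354, 0.716 and 0.584 CPM to 6.50, 4.93 and 5.86 CPM (adjusted p = 1.74e-06 and 1.25e-06). Tnfrsf9, the costimulatory receptor 4-1BB, rose 8.04-fold and Celf4, an RNA-binding protein, 6.49-fold (adjusted p = 5.43e-05 and 0.000649). Of the decreases, Pgc (progastricsin), a protease of type 2 cells, fell by 1.85 on the log2 scale (adjusted p = 0.00222). Tenm4 (teneurin 4) was at 3.81, 16.1 and 14.4 CPM untreated and 2.32, 2.95 and 3.05 CPM treated (log2 −2.05 ± 0.40, adjusted p = 0.00239). With untreated replicate 1 as the only untreated lung its log2 change was −0.40. The size of this fall thus rests on untreated replicates 2 and 3, which carry the letter k, while replicate 1 carries n. In the control genotype the untreated k lungs were at 14.6 and 14.7 CPM and the n lung at 4.04 CPM. The treated control lungs were at 2.02, 3.35 and 3.93 CPM. The part of the letter in this fall was not tested.

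The question posed by the genotypes is whether loss of RORa in cells with Il7r activity alters the response to naphthalene. The difference between the KO and the control genotype in the day 2 effect was called for 0 of 20606 genes (edgeR), with 371 genes at an unadjusted p under 0.05, and DESeq2 called 0 as well. In the control genotype itself 774 genes were called (3.76%; 2.57% higher and 1.18% lower). Of the 565 genes called in KO lungs, 398 were also called there in the same direction (70.4% of the KO calls and 51.4% of the control calls), none in the opposite direction, and 559 had the same sign (98.9%). These comparisons share no library, but they share the split of the letters in the library names. In both genotypes the treated libraries carry a and the untreated ones k or n. The shared calls therefore cannot tell treatment from letter. For Scgb1a1 the log2 change was −3.95 ± 0.29 in KO and −3.60 ± 0.29 in control lungs, a difference of −0.34 ± 0.37 (adjusted p = 1.00). For Scgb3a1 it was −2.73 ± 0.66 and −0.81 ± 0.61, a difference of −1.92 ± 0.88 that did not pass the test (adjusted p = 1.00), and the treated control lungs ranged from 7.68 to 68.7 CPM. For Cd177 it was 4.84 ± 0.44 and 4.14 ± 0.41, a difference of 0.70 ± 0.57 (adjusted p = 1.00). With 3 lungs a group a genotype difference of the size of these standard errors was not detectable.

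The change at day 2 differed from that at day 5 in KO lungs for 10 of 20606 genes (0.0485%), 1 toward a higher value at day 2 (0.00485%) and 9 toward a lower one (0.0437%), with 1511 at an unadjusted p under 0.05. Day 5 itself had 272 called genes (1.32%; 1.14% higher and 0.18% lower), of which 154 were called at day 2 in the same direction (27.3% of the day 2 calls and 56.6% of the day 5 calls). Of the 565 genes, 506 kept their sign at day 5 (89.6%). The names of the treated KO libraries of day 5 carry b or i and those of the untreated ones f or o, none of which occurs at day 2. In the day difference, day and letter therefore cannot be told apart, and the part of the letter was not tested. Scgb3a2 was at 396, 383 and 464 CPM in untreated and 705, 735 and 539 CPM in treated KO lungs of day 5, so that the treated lungs lay below the untreated ones at day 2 and above them at day 5 (difference in log2 change −3.31 ± 0.51, adjusted p = 0.00394). The change at day 5 was not called by itself (log2 0.67 ± 0.35, adjusted p = 0.423). Scgb1a1 was still low at day 5 (log2 −2.23 ± 0.27, adjusted p = 7.97e-06), and its difference between the days was not called (−1.72 ± 0.37, adjusted p = 0.0906). Areg rose less at day 5 (log2 1.72 ± 0.37, adjusted p = 0.0121), also without a called difference (2.22 ± 0.54, adjusted p = 0.179).

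Regulators of multiciliogenesis were the largest group among these 10 genes. Mcidas was at 0.191 ± 0.199 CPM (SD, n = 3) in treated lungs of day 2 and at 1.96, 2.64 and 2.42 CPM in those of day 5, where the untreated lungs had 1.30, 0.841 and 0.945 CPM (difference −4.19 ± 0.74, adjusted p = 0.0132). Foxn4 was at 1.54, 1.63 and 2.42 CPM in treated lungs of day 5 and had 2 reads in those of day 2 (difference −5.26 ± 0.84, adjusted p = 0.00394). Cdc20b and Ccno, a cyclin-like protein of centriole amplification, differed as well (−6.15 ± 1.09 and −2.11 ± 0.39, adjusted p = 0.0132 and 0.0271). Ccno was not called at day 2 alone (log2 −0.86 ± 0.29, adjusted p = 0.104) and was higher at day 5 (log2 1.24 ± 0.27, adjusted p = 0.0127). The changes of Mcidas, Foxn4 and Cdc20b at day 5 were not called by themselves (edgeR, adjusted p = 0.247, 0.0697 and 0.13). The fitted size for Foxn4 and Cdc20b rests on 2 and 1 reads in the treated lungs of day 2. Crocc2, a ciliary rootlet protein, Ccna1, a cyclin of multiciliated and germ cells, and Rtp4 complete the named genes (−1.98 ± 0.39, −2.85 ± 0.55 and −1.31 ± 0.26, adjusted p = 0.0346 for each). At day 2 alone Ccna1 fell by 1.69 on the log2 scale (adjusted p = 0.0223, and 0.172 without untreated replicate 3). Crocc2 was not called at day 2 alone (edgeR, adjusted p = 0.259) and was higher at day 5 (log2 1.34 ± 0.27, adjusted p = 0.00617). The other 2 of the 10 are gene models. No structural cilium gene had a called difference between the days, with 17 called higher at day 2 and 11 at day 5.

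**Figure D5:**
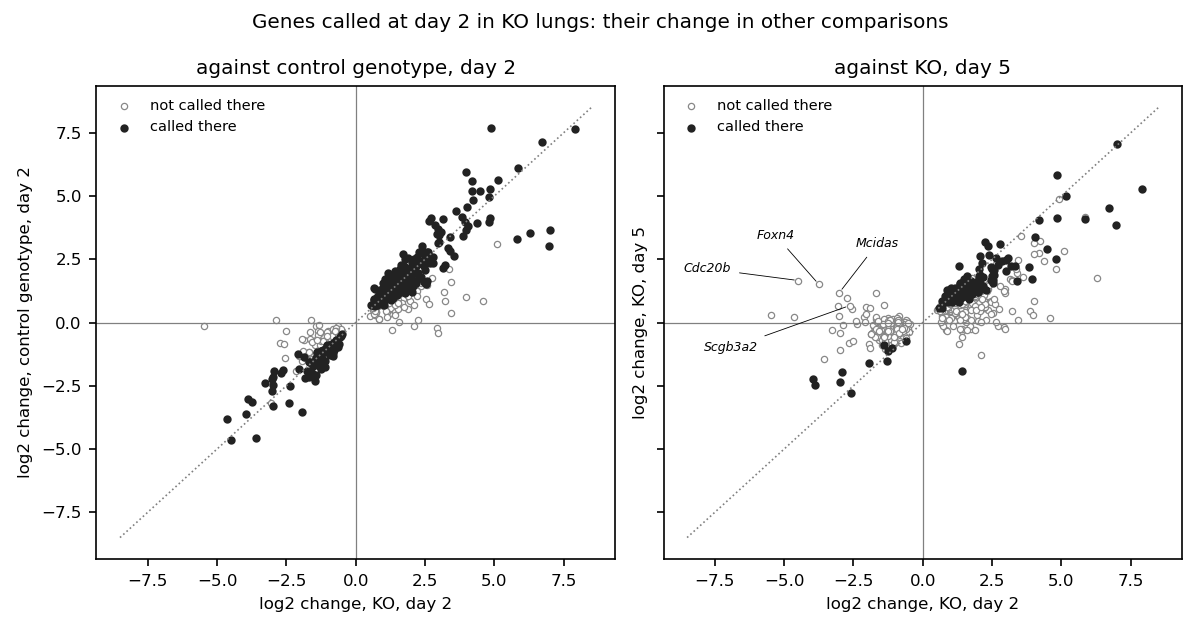
Each point is 1 of the 565 genes called at day 2 in KO lungs, with its log2 change there on the x axis and its log2 change in control lungs at day 2 (left) or KO lungs at day 5 (right) on the y axis; filled points are called in that comparison too. Of the 565 genes 559 keep their sign on the left and 506 on the right, where Foxn4, Mcidas, Cdc20b and Scgb3a2 are labelled.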

How the data were processed

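Counts of reads per gene were deposited by the authors as 1 table of whole numbers for 57186 genes, unnormalised as far as the values show. GRCm39 and DESeq2 appear in the submitters' processing notes, DESeq2 with no stated use. For the aligner, the counter and the annotation, the entry is: not given in the sources used here. RNA was extracted from whole lung and made into libraries with an mRNA kit, per the labels' protocols.

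Genes were kept by filterByExpr on the 12 groups (20606 tested). Libraries were scaled by TMM, and 1 edgeR 4.0.16 quasi-likelihood fit (R 4.3.3, robust, 12 group means over 35 libraries, 23 residual degrees of freedom) gave every contrast, with two-sided tests and Benjamini-Hochberg adjustment over all tested genes at 0.05. CPM were computed from the counts with the TMM factors. Ratios of pooled CPM with few reads carry exact 95% intervals for counting error. Totals ran from 10696690 to 17621862 counts in the 6 libraries. In a test on simulated counts for the day 2 KO comparison (20352 genes, 200 of them changed), 135 genes were called, 8 of them falsely, and the share found was 43% for changes of 2-fold and 84% for 4-fold. The simulated counts held no library that stands apart, and no changed gene was drawn from the lowest levels. These shares therefore need not hold for the data.

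The members, the 56 gene lists (827 genes) and the tests were chosen with earlier results of these data known, and lists were given no test of their own. Named genes are the 12 largest increases and 10 largest decreases with at least 5 CPM in 1 group and no overlap between groups, the called list members with the smallest p (up to 6 in each direction, otherwise the member with the smallest p), the 2 most abundant members of a list, the called genes of the difference tests, and Rora and Il7r. Some genes picked by the rule are left out, and some are not reported here. Drc1, Hydin, Krt18, Krt4, Sprr1a, Lgals3 and Il5 fall outside it and were chosen after their values were seen. Alternatives were RLE scaling (DESeq2's size factors), no filter, DESeq2 1.42.0, a fit restricted to the groups compared, replicate number as a block, and leaving out each library. Chosen after seeing the data were a fit with untreated replicate 1 as the only untreated library and a fit without an outlying control library of day 5. Promoters are RefSeq, build GRCm38.p6.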

Additional observations from a re-analysis of the deposited data

Results flagged for a closer look

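In KO lungs the change after naphthalene at day 2 differed from that at day 5 by the test of the difference itself (edgeR, adjusted over all tested genes) in 8 genes with a name, in each case toward a lower value at day 2. The differences in log2 change were −3.31 for Scgb3a2, −5.26 for Foxn4, −4.19 for Mcidas, −6.15 for Cdc20b, −2.11 for Ccno, −1.98 for Crocc2, −2.85 for Ccna1 and −1.31 for Rtp4. Scgb3a2 and Foxn4 kept the call without each of the 12 libraries of both days in turn. Mcidas and Cdc20b kept it in 9 of the 12 fits, with the highest adjusted p at 0.0927 without treated replicate 3 of day 2 for Mcidas and at 0.0744 without untreated replicate 3 of day 2 for Cdc20b. Ccno kept it in 5, Rtp4 and Ccna1 in 4 and Crocc2 in 3. The letters in the library names differ between the days, so that day and letter cannot be told apart in these differences.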

How the results depend on the processing

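Every gene called in KO lungs at day 2 kept its direction under each alternative that tested it, except for the one with a single untreated library. The count of 565 (411 higher, 154 lower) was 573 with RLE scaling, with 558 genes shared, and 818 with DESeq2, with 560 shared and 260 lower. It was 1056 (664 higher, 392 lower) without a filter on low counts and 261 (225 higher, 36 lower) when only the 2 compared groups were fitted. Leaving out 1 library gave 216 to 1099 calls, 175 to 570 higher and 36 to 529 lower. With untreated replicate 1 as the only untreated library, an alternative chosen after seeing the data, 84 were called (56 higher, 28 lower), and 12 of the 565 genes changed sign. In that fit Rora also changed sign, at a log2 change of −0.078. The other alternative chosen after seeing the data gave 596 calls.

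The genotype difference, with 0 calls, had 12 without the filter. The 10 calls of the day difference became 130 without the filter, 30 with DESeq2, 1 with only the compared groups and 3 to 46 without 1 library. The genotype contrast of Il7r in untreated lungs (log2 0.30) turned to −0.019 and −0.095 without untreated control replicates 1 and 2, and leaving out any 1 library gave −0.095 to 1.51. Replicate numbers did not pair the libraries, since same-numbered treated and untreated lungs had correlations of their deviations of 0.147, 0.084 and −0.049. A replicate block gave 523 calls, of which 489 were among the 565, 0 for the genotype difference and 6 for the day difference. The cause of these differences was not tested. Depth limits the genes at under 1 CPM, where a group holds few reads.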
